A study of Mus musculus with 3 samples.

Results

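Single mouse embryonic stem cells that carried the most transcripts of early primitive streak genes were compared with the other cells of the same culture. In each of the 2 libraries treated with FGF4, the summed transcripts of 7 genes (T, Eomes, Mixl1, Fst, Cdx2, Wnt3 and Evx1) were counted in every intact cell and divided by the cell's total, and the top 10% of cells were taken. This gave 151 of the 1504 intact FGF4-treated cells, among 2222 cell barcodes in the series: 71 of 706 cells at 5 ng/ml FGF4 and 80 of 798 at 50 ng/ml. They are called high-score cells below, and the remaining 635 and 718 intact cells are the rest. All cultures were the Fgf4 -/- E14tg2a line of mouse embryonic stem cells, grown first in ES medium with LIF and then for 24 h in N2B27, a serum-free medium, with Chiron, an inhibitor of GSK3, and heparin. They differed in the dose of FGF4 protein, which was 0, 5 or 50 ng/ml. Each dose was 1 library, so no value below has a replicate check, no test between classes was made, and every interval is a 95% interval for counting error alone. The 0 ng/ml library was split by the same rule into 36 high-score cells and 323 others, and its values are given as a reference without added FGF4.

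The primitive streak is the strip of the gastrulating embryo through which epiblast cells leave to form mesoderm and endoderm. Wnt signals raise T and the Cdx genes there, Nodal raises Eomes and Mixl1, and FGF signals through the kinase ERK are needed for cells to move through the streak. In mouse embryonic stem cells, FGF4 made by the cells is the main signal that starts exit from the naive pluripotent state, passing first through a formative state marked by Otx2 and Pou3f1. GSK3 inhibition stabilises beta-catenin, the mediator of Wnt signals, and the inhibitor was present at every dose. The line was labelled as an Fgf4 mutant, and Fgf4 transcripts were still counted, at 25.9 UMIs (unique molecular identifiers, each standing for 1 captured transcript) per 1000000 of the class, or CPM, in the rest at 5 ng/ml and 21.7 CPM at 50 ng/ml. The sources used here do not say which part of the gene was altered, so these 3′ counts do not check the genotype.

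The libraries held 42726514, 75184072 and 81409975 UMIs at 0, 5 and 50 ng/ml, in 373, 874 and 975 barcodes, none shared between libraries. Depth hardly differed between the classes. The median was 93323 UMIs in high-score cells and 98892 in the rest at 5 ng/ml, and 97331.5 against 93304.5 at 50 ng/ml. Mitochondrial transcripts made up a median of 5.19% against 5.18% at 5 ng/ml and 5.26% against 5.49% at 50 ng/ml. A doublet caller marked none of the 71 high-score cells at 5 ng/ml and 1 of the 80 at 50 ng/ml. None of the 30 S-phase genes and none of the 34 G2 and M-phase genes differed by 1.5-fold between the classes at either dose.

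The genes that chose the cells are described here without a test. T, the T-box factor that marks the streak, stood at 37.4 CPM in high-score cells and 6.46 CPM in the rest at 5 ng/ml, and at 55.0 and 7.01 CPM at 50 ng/ml. Fst, which encodes the activin antagonist follistatin, stood at 44.0 and 7.28 CPM at 5 ng/ml and at 45.8 and 8.60 CPM at 50 ng/ml. Cdx2, a posterior homeobox gene, stood at 38.9 and 5.5 CPM, then 37.8 and 8.46 CPM. Eomes, the second T-box factor of the streak, was lower, at 17.8 and 5.87 CPM, then 27.2 and 7.45 CPM. At 5 ng/ml Fst gave 30.1% of the score's UMIs in these cells, Cdx2 26.6%, T 25.6% and Eomes 12.2%, and Mixl1 stayed under 1 CPM in every class of the FGF4 libraries. The median high-score cell held 12 UMIs of the 7 genes at 5 ng/ml and 15 at 50 ng/ml, against 2 and 3 in the rest.

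The score had no gap at the boundary. Per 10000 UMIs, the 10 cells just inside it at 5 ng/ml scored 0.941 to 0.988 and the 10 just outside 0.870 to 0.939, and at 50 ng/ml the ranges were 1.03 to 1.11 and 1.01 to 1.03. The highest score was 7.25 at 5 ng/ml, 4.44 at 50 ng/ml and 1.19 without FGF4. The high-score cells are therefore the upper end of a continuous range of the score.

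**Figure D1:**
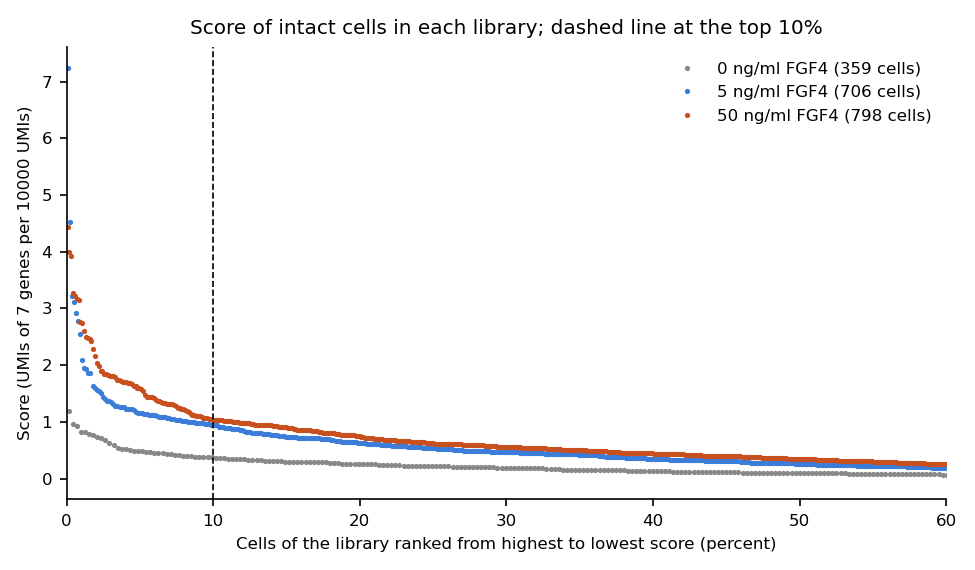
Score of each intact cell (UMIs of the 7 genes per 10000 UMIs, vertical axis) against its rank within its library in percent (horizontal axis, from the highest score), with a point for each cell, a colour for each of the 3 FGF4 doses and a dashed line at the top 10%. The curves pass the boundary without a step, at 0.941 for 5 ng/ml and 1.03 for 50 ng/ml.

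Each score gene was then read in cells chosen by the other 6, so that its own counts played no part in the choice. These cells overlapped the high-score cells widely, with 55 of 71 shared for T at 5 ng/ml. The values describe the score genes among themselves and give no support from outside the score. T stood at 23.6 CPM in such cells and 7.97 CPM in the rest at 5 ng/ml, 2.96-fold higher (2.47 to 3.54), and at 24.3 against 10.7 CPM at 50 ng/ml, 2.28-fold higher (1.93 to 2.67). Cdx2 stood at 21.3 against 7.44 CPM, 2.87-fold higher (2.37 to 3.45), and at 25.9 against 9.88 CPM, 2.62-fold higher (2.24 to 3.07). Fst was 2.68-fold higher (2.25 to 3.18) at 5 ng/ml and 1.53-fold higher (1.28 to 1.83) at 50 ng/ml. For Eomes the ratios were smaller, 1.68 (1.30 to 2.14) and 1.44 (1.16 to 1.77), while it was 3.62-fold higher (2.25 to 5.67) without FGF4. Wnt3, a ligand expressed at the onset of the streak, was 3.84-fold (2.05 to 6.91) and 2.86-fold (1.44 to 5.34) higher on few counts, and Mixl1 had 6 UMIs in the chosen cells of either library, too few to read. Without FGF4 the ratio of T was 1.97 (1.15 to 3.21), that of Cdx2 2.05 (1.26 to 3.21) and that of Fst 1.02 (0.397 to 2.23), on 36 chosen cells. Correlations of single pairs across cells were weak in these sparse counts and nothing is read from them.

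Several markers of a definite streak or of its descendants were close to 0. Lhx1, Foxa2, Msgn1, Aplnr and Cer1, genes of endoderm, mesoderm or the anterior streak, had no UMI in the high-score cells of either FGF4 library. Tbx6, a paraxial mesoderm factor, had 1 UMI in the 71 cells and 2 in the 80, Wnt3a had the same, and Gsc, the organizer gene, had 2 and 1. Mesp1, the first gene of cardiac mesoderm, had 9 and 12 UMIs, and Kdr, a receptor of blood and vessel precursors, had 7 and 12. These counts give the level and do not compare the classes. Of 32 listed streak and early mesoderm genes outside the score, 6 and 8 had no UMI in the high-score cells. Over the 29 with a UMI in either class, the median log2 difference was 0.89 and 0.51, and 0.58 without FGF4. There a count of 0 was replaced by 3 UMIs, so these medians are rough. Pou5f1, the core pluripotency factor, stood at 395 CPM against 392 CPM in the rest at 5 ng/ml and at 365 against 385 CPM at 50 ng/ml. The label of streak-leaning cells thus rests on the score genes and the few posterior genes described next, and the cells are named by their score for that reason.

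Few genes apart from the score differed. Among genes of at least 10 CPM in the higher class, the 5 ng/ml library had 108 of 7683 that were at least 1.5-fold higher in high-score cells (1.41%) and 62 that were lower by that much (0.807%). The 50 ng/ml library had 71 of 7514 higher (0.945%) and 81 lower (1.08%). In both libraries 44 of 7408 genes were higher (0.594%), 19 were lower (0.256%) and 1 went opposite ways (0.0135%). The middle 95% of genes lay between -0.38 and 0.47 on the log2 scale at 5 ng/ml and between -0.41 and 0.41 at 50 ng/ml. A gene higher in the small class can enter by that class alone, and 28 of the 44 also reached 10 CPM in the rest of both libraries. The same split at 0 ng/ml, with 36 cells on the high side, gave 147 of 7715 genes higher (1.91%) and 85 lower (1.1%), on fewer cells and so with wider counting error. Taking T or Fst out of the score left 28 genes higher in both libraries, and leaving out the 3 cells of each class with the most UMIs of each gene left 18.

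Among the named genes that were higher at both doses, the largest ratio was that of Wnt8a, a Wnt ligand of the posterior epiblast and streak (chromosome 18, 34542313 to 34548273, plus strand, mm10). It stood at 18.9 CPM in high-score cells and 3.74 CPM in the rest at 5 ng/ml, a ratio of 5.05 (4.06 to 6.26). With 50 ng/ml it stood at 18.3 and 4.79 CPM, a ratio of 3.82 (3.14 to 4.65). Wnt8a thus reached the minimum of 10 CPM in the high-score cells alone. Of the 12 named higher genes, 8 reached it in the rest of both libraries, and Wnt8a, Pou3f1, Otx2 and Epha1 did not. Of the 12 named lower genes, 6 reached it in the high-score cells of both libraries. A Wnt8a transcript was seen in 37 of 71 high-score cells (52.1%) and 146 of 635 others (23.0%) at 5 ng/ml, and in 49 of 80 (61.3%) and 196 of 718 (27.3%) at 50 ng/ml. In the 359 intact cells without FGF4 it had no UMI, which allows a share of cells with a Wnt8a UMI of up to 0.836% and sets no limit on cells that express it. Its ratio stayed past 1.5-fold in all 21 alternatives at both doses. All libraries hold the same cell line and no cell type known to lack the gene, so a level set by free RNA could not be read within the FGF4 libraries. The transcripts were uneven even within the high-score cells, with 5 cells holding 48.5% of them at 5 ng/ml and 35.8% at 50 ng/ml.

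A posterior homeobox gene was also on the high side. Nkx1-2, a homeobox gene of the caudal epiblast (chromosome 7, 132594878 to 132599637, minus strand), stood at 23.1 against 11.2 CPM, 2.07-fold higher (1.73 to 2.45), and at 24.4 against 10.2 CPM, 2.40-fold higher (2.04 to 2.81). At 0 ng/ml the values were 5.63 and 6.22 CPM, a ratio of 0.905 (0.563 to 1.39). The classes thus stood apart at either FGF4 dose and overlapped within counting error without FGF4.

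Across a list of 13 axial and posterior genes, 5 reached 5 CPM in the higher class at each dose. At 5 ng/ml, 4 of these 5 were at least 1.5-fold higher in high-score cells, where the share over all genes of that level was 2.45%, and the list's median log2 difference was 1.05. All 5 were higher at 50 ng/ml, against 1.63% over all genes, with a median of 1.26. Without FGF4, none of 4 was higher (3.45% of all genes were) and the median was 0.14. At each FGF4 dose, 2 of the 5 reached the level in the high-score cells alone. Hoxb1, a hindbrain regulator, and Cdx4, a tail-bud regulator, showed large ratios on few transcripts. Hoxb1 had 34 UMIs in 12 of 71 high-score cells at 5 ng/ml, 4.80 against 0.547 CPM, and 45 UMIs in 28 of 80 cells at 50 ng/ml, 5.46 against 1.37 CPM. Cdx4 stood at 3.95 against 0.958 CPM, and at 6.43 against 1.48 CPM. Cdx1, a direct Wnt target related to Cdx2, was 1.44-fold higher (1.32 to 1.56) at 5 ng/ml and 1.61-fold higher (1.50 to 1.73) at 50 ng/ml.

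A second list held 32 genes of the streak and early mesoderm outside the score, Cdx1 and Cdx4 among them. Of these, 8 reached 5 CPM at 5 ng/ml, with Wnt8a alone at least 1.5-fold higher (2.45% of all genes were) and none lower by that much. In the 50 ng/ml library 10 reached it. Wnt8a, Cdx1, Cdx4 and Dll3, a Notch ligand of the presomitic mesoderm, were higher and Nodal was lower, against 1.63% and 1.7% of all genes. Of the measured members, 2 at 5 ng/ml and 3 at 50 ng/ml reached the level in the high-score cells alone. Over members with 5 CPM in all intact cells together, 1 of 7 and 2 of 8 were higher. The medians of the measured members were 0.29 and 0.28, and over members with 5 CPM in all intact cells the median at 50 ng/ml was 0.029. Nodal, the ligand that drives streak formation, stood at 28.6 against 35.7 CPM at 5 ng/ml, a ratio of 0.801 (0.691 to 0.925), and at 20.5 against 31.7 CPM at 50 ng/ml, a ratio of 0.647 (0.550 to 0.757). It was thus lower in the cells with the most streak transcripts, while in the 0 ng/ml library it was 1.21-fold higher in the high-score class.

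**Figure D2:**
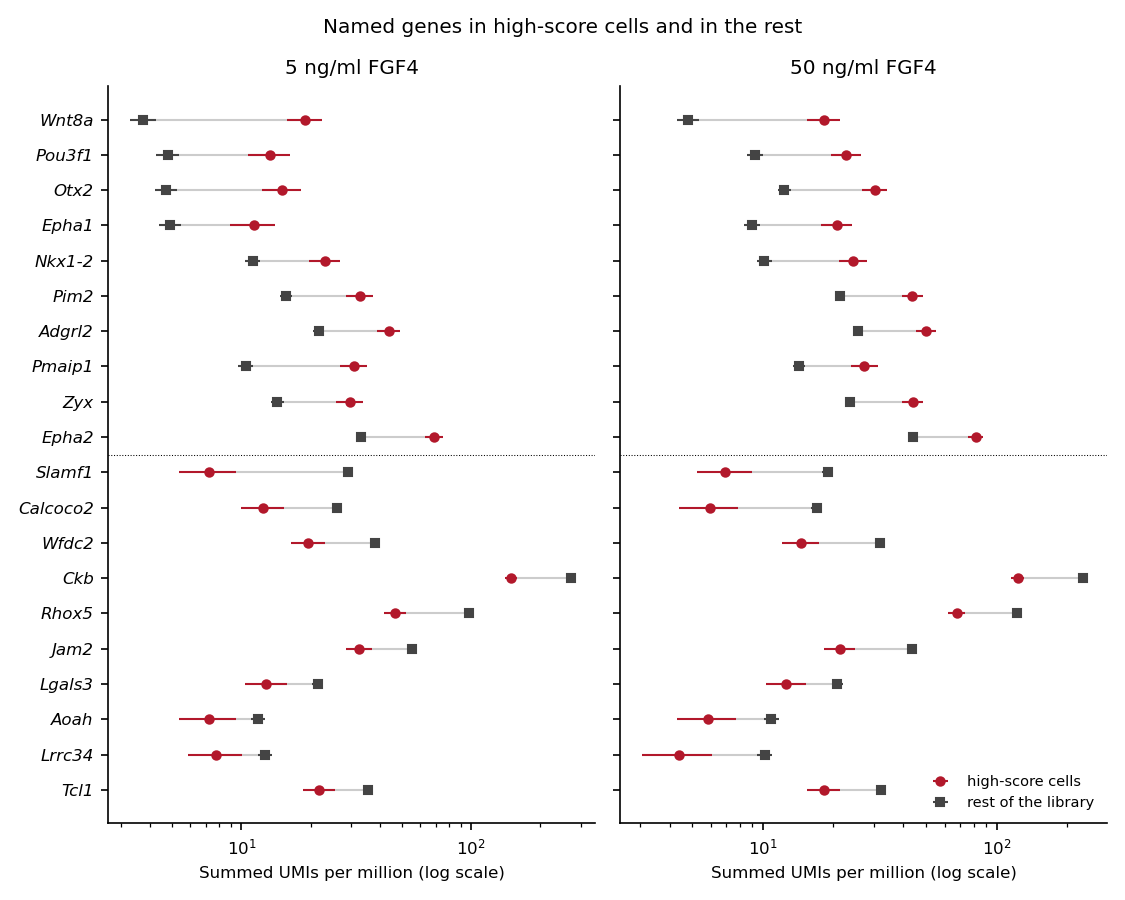
Level in CPM (log axis) of 10 named genes with a higher and 10 with a lower level in high-score cells, in high-score cells (circles) and the rest (squares), with a panel for 5 and a panel for 50 ng/ml FGF4 and 95% exact Poisson intervals for counting error. Wnt8a lies at 18.9 and 18.3 CPM in the high-score cells at 5 and 50 ng/ml, and Ckb lies at 149 and 123 CPM against 273 and 235 CPM in the rest.

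Genes of formative pluripotency lay on the high side in both libraries. Of 19 listed, 17 reached 5 CPM at either dose, and 7 at 5 ng/ml and 8 at 50 ng/ml were at least 1.5-fold higher, with none lower by that much. The shares over all genes of that level were 2.45% and 1.63%. Of the measured members, 3 at 5 ng/ml and 1 at 50 ng/ml reached the level in the high-score cells alone, and over those with 5 CPM in all intact cells 6 of 16 and 7 of 16 were higher. The 7 were the same genes at both doses, and the median log2 differences were 0.41 and 0.50. The list leaned the same way without FGF4, where 3 of 13 measured genes were higher (3.45% of all genes were) and 1 lower, with a median of 0.35. Otx2, the homeobox gene that opens the formative state (chromosome 14, 48657677 to 48673819, minus strand), stood at 15 against 4.70 CPM at 5 ng/ml, 3.18-fold higher (2.53 to 3.98), and at 30.1 against 12.4 CPM at 50 ng/ml, 2.43-fold higher (2.10 to 2.80). Pou3f1, a POU-domain factor gene of the same state (chromosome 4, 124656807 to 124660655, plus strand), stood at 13.3 against 4.77 CPM, 2.78-fold higher (2.18 to 3.51), and at 22.8 against 9.29 CPM, 2.46-fold higher (2.08 to 2.89). Both were low at 0 ng/ml, where Pou3f1 had 3.67 and 3.02 CPM, a ratio of 1.22 (0.659 to 2.09), and Otx2 had 3.43 and 1.73 CPM, a ratio of 1.98 (1.03 to 3.56). The transcripts of both genes were uneven within the high-score cells. At 5 ng/ml, 5 cells held 42.5% of those of Otx2 and 46.8% of those of Pou3f1, and the median cell had 0. At 50 ng/ml 5 cells held 35.5% and 46.3%. A high-score cell exceeded another cell in 56.2% and 58.1% of pairs at 5 ng/ml, and in 63.2% and 60.2% at 50 ng/ml. The size of both ratios moved with the choice of cells. The log2 ratio of Pou3f1 came under 1.5-fold after thinning at 5 ng/ml (0.58, from 1.47) and without Fst in the score at 50 ng/ml (0.54, from 1.30), and that of Otx2 at 50 ng/ml was 0.63 without Fst, from 1.28.

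The more abundant formative genes differed by less. Lef1, a nuclear partner of beta-catenin, stood at 110 against 69.0 CPM at 5 ng/ml, 1.60-fold higher (1.48 to 1.73), and at 142 against 82.9 CPM at 50 ng/ml, 1.71-fold higher (1.60 to 1.82). Tcf15, an FGF-responsive factor of cells primed for exit, was 1.51-fold (1.38 to 1.64) and 1.72-fold (1.61 to 1.82) higher, and Sox11 1.50-fold (1.34 to 1.68) and 1.70-fold (1.56 to 1.86). Dnmt3b, the de novo DNA methyltransferase, was 1.16-fold (1.09 to 1.23) and 1.17-fold (1.11 to 1.23) higher. The 0 ng/ml library had Lef1 at 15.7 against 8.14 CPM, Tcf15 at 18.4 against 18.1 CPM and Dnmt3b at 70.7 against 55.6 CPM. Summed per cell, the formative list had a median of 9.26 UMIs per 10000 in high-score cells and 7.59 in the rest at 5 ng/ml, and 12.4 against 9.33 at 50 ng/ml. A high-score cell exceeded another cell in 69.5% of pairs at 5 ng/ml and in 77.5% at 50 ng/ml.

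Naive pluripotency genes lay on the low side, and further so at the higher dose. Of 22 listed, 20 reached 5 CPM. At 5 ng/ml, 2 were lower by at least 1.5-fold (1.31% of all genes were) and 1 was higher, and at 50 ng/ml 9 were lower (1.7% of all genes) and 1 higher, with medians of -0.32 and -0.53. Without FGF4, 1 of 22 was lower and the median was -0.24. Nanog, which holds cells in the naive state, stood at 124 against 154 CPM at 5 ng/ml, a ratio of 0.807 (0.752 to 0.865), and at 67.5 against 109 CPM at 50 ng/ml, a ratio of 0.620 (0.568 to 0.675). Zfp42, also called Rex1, had ratios of 0.722 (0.696 to 0.750) and 0.572 (0.549 to 0.596), and Tfcp2l1 had 0.684 (0.618 to 0.756) and 0.516 (0.454 to 0.584). Esrrb and Klf4 followed, at 0.866 and 0.835 at 5 ng/ml and 0.621 and 0.553 at 50 ng/ml. Whether the doses differ was not tested, since each is 1 library. The naive-listed gene on the high side was Gbx2, a homeobox gene that is also on in the posterior epiblast, 1.67-fold higher (1.49 to 1.86) at 5 ng/ml and 2.02-fold higher (1.85 to 2.19) at 50 ng/ml. Of the 12 general pluripotency genes none passed 1.5-fold at either dose.

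**Figure D3:**
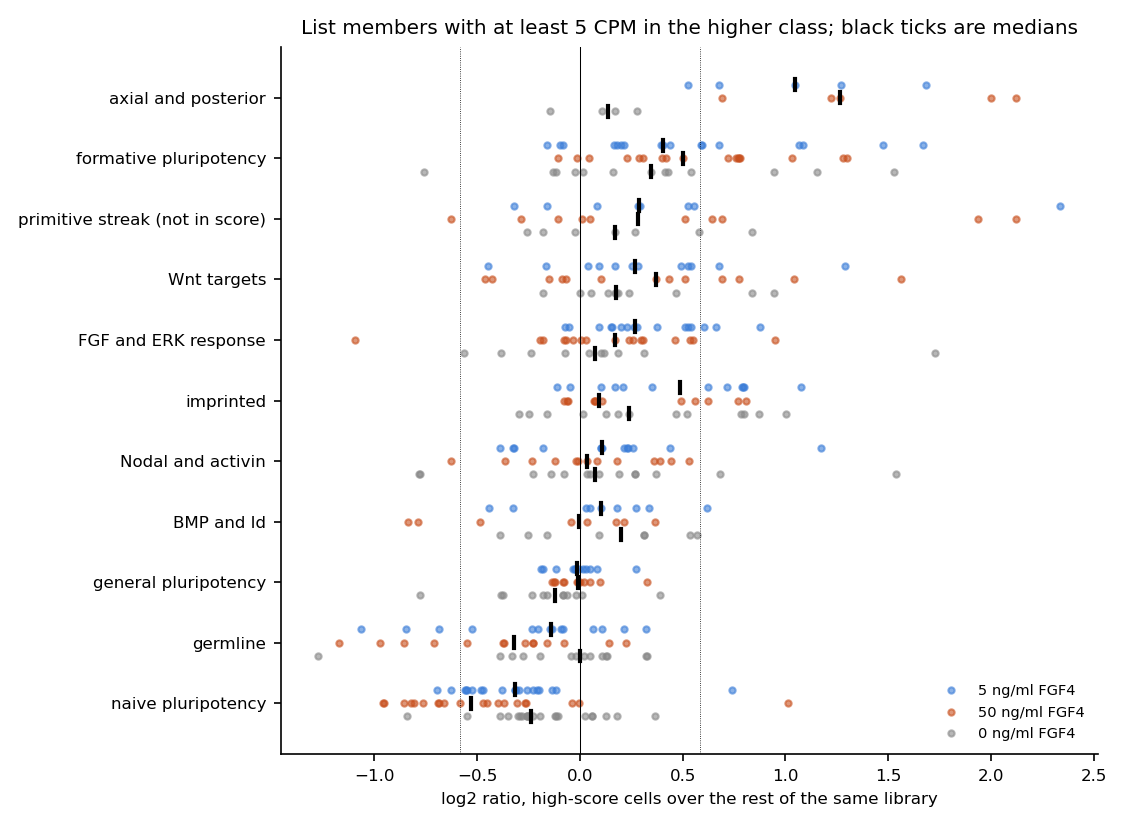
Log2 ratio of high-score cells to the rest (horizontal axis) for the genes of the chosen lists that reached 5 CPM in the higher class, 1 point per gene and 1 colour per library, with a black tick at each list's median and dotted lines at 1.5-fold. Formative genes centre at 0.41 and 0.50 and naive genes at -0.32 and -0.53 at 5 and 50 ng/ml, and general pluripotency genes lie near 0.

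Signalling genes showed a narrow set of differences. Of the 23 listed Wnt targets, Lef1 and Sp8, a zinc-finger factor of posterior and limb tissue, were at least 1.5-fold higher among 12 measured at 5 ng/ml. These, Cdx1 and Dkk4, a secreted Wnt antagonist, were higher among 13 at 50 ng/ml. The shares over all genes were 2.45% and 1.63%. Of the measured targets, 1 at 5 ng/ml and 2 at 50 ng/ml reached the level in the high-score cells alone. Over those with 5 CPM in all intact cells, 1 of 11 and 2 of 11 were higher. The medians were 0.27 and 0.37, and the latter was 0.10 over genes that reached 5 CPM in all intact cells together and -0.041 without the 3 cells of each class with the most UMIs of each gene. Axin2, the general feedback target of beta-catenin, was level, at 46.3 against 41.0 CPM at 5 ng/ml and 35.8 against 39.7 CPM at 50 ng/ml. Sp5, another direct target, was 1.22-fold (1.08 to 1.37) and 1.43-fold (1.29 to 1.58) higher. The 0 ng/ml library had Sp5 at 69.5 against 38.9 CPM and Axin2 at 41.6 against 37.8 CPM. There 2 of 11 measured Wnt targets were higher, against 3.45% of all genes, with a median of 0.18. Among ligands, receptors and nuclear partners, Fzd10, a Wnt receptor of the posterior embryo, was 1.77-fold (1.52 to 2.07) and 1.57-fold (1.32 to 1.85) higher, and Tcf7l1, the repressor form of the TCF factors, had ratios of 0.839 (0.754 to 0.932) and 0.653 (0.580 to 0.734). The classes thus differed at single Wnt genes, and the common feedback gene did not pass 1.5-fold at either dose.

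Of 21 genes of the FGF and ERK response, 3 of 16 measured were past 1.5-fold upward at 5 ng/ml, against 2.45% of all genes. In the 50 ng/ml library 1 of 17 was higher and 1 lower, against 1.63% and 1.7%. Dusp4, a phosphatase that removes ERK's activating phosphates, stood at 11.8 against 6.45 CPM at 5 ng/ml, 1.84-fold higher (1.44 to 2.33), and at 21.4 against 11.1 CPM at 50 ng/ml, 1.93-fold higher (1.63 to 2.27). It was the single gene of the list past 1.5-fold at both doses. Spry4, an inhibitor of receptor tyrosine kinase signals, passed at 5 ng/ml (1.58, 1.32 to 1.88) and was 1.20-fold higher at 50 ng/ml. Spry2 was 1.44-fold (1.29 to 1.60) and 1.38-fold (1.26 to 1.50) higher. Etv5, an ERK-induced ETS factor, was slightly on the low side with ratios of 0.95 and 0.876. Egr1, an immediate early gene, was level at 5 ng/ml (1.11, 0.917 to 1.34) and lower at 50 ng/ml (0.469, 0.331 to 0.647), where the high-score cells held 39 UMIs of it. The list's median log2 differences were 0.27 and 0.17.

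Few Nodal and BMP pathway genes passed 1.5-fold. In the 5 ng/ml library 1 of 13 measured Nodal genes, Lefty1, and 1 of 9 BMP genes, the ligand gene Bmp7, were higher, against 2.45% of all genes. In the 50 ng/ml library 1 of 13 Nodal genes, Nodal itself, and 2 of 8 BMP genes, Bmp4 and the target Id1, were lower, against 1.7% of all genes. Lefty1, the secreted Nodal inhibitor, was 2.25-fold higher (2.09 to 2.43) at 5 ng/ml and 1.36-fold higher (1.21 to 1.53) at 50 ng/ml, with 51% and 45% of its high-score transcripts in 5 cells. It was also 2.91-fold higher in the high-score class without FGF4. Bmp4, the ligand that induces posterior streak, had ratios of 0.736 (0.592 to 0.907) and 0.561 (0.467 to 0.669), and the BMP target Id3 had 0.799 (0.707 to 0.900) and 0.713 (0.646 to 0.787). Bmp7 stood at 7.19 against 4.68 CPM at 5 ng/ml, a ratio of 1.54 (1.12 to 2.07), and had a ratio of 1.01 (0.675 to 1.47) at 50 ng/ml. At 5 ng/ml Bmp7 reached 5 CPM in the high-score cells alone. Over BMP genes with 5 CPM in all intact cells there, 0 of 8 were higher. Bmp4 and Id3 were thus on the low side in both FGF4 libraries, and Bmp7 was not.

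Several genes outside these pathways completed the high side. Epha2 and Epha1 are ephrin receptors. Epha2 (chromosome 4, 141301240 to 141329384, plus strand) stood at 69.0 against 33.2 CPM at 5 ng/ml, 2.08-fold higher (1.88 to 2.29), at 81.5 against 44.1 CPM at 50 ng/ml, 1.85-fold higher (1.70 to 2.01), and at 21.0 against 18.8 CPM without FGF4. Epha1 was 2.31-fold higher at both doses (1.78 to 2.95 and 1.94 to 2.74), and Zyx, which encodes the adhesion protein zyxin and whose 3′ end overlaps that of Epha1 on the other strand, 2.06-fold (1.77 to 2.40) and 1.87-fold (1.66 to 2.09). Reads could be divided between these neighbours. The difference in Zyx was also present without FGF4, at 3.8-fold higher (2.42 to 5.85) on 31 UMIs in the high-score cells. Epha1 had 6 UMIs in the high-score cells and 4 in the rest there, too few to read. Pim2, a growth-promoting kinase that is also on the formative list (chromosome X, 7878262 to 7883432, plus strand), was 2.09-fold (1.81 to 2.42) and 2.05-fold (1.82 to 2.30) higher. The adhesion receptor Adgrl2 was 2.02-fold (1.78 to 2.28) and 1.95-fold (1.75 to 2.17) higher, and 1.89-fold (1.43 to 2.47) without FGF4. Pmaip1, also called Noxa, a cell-death gene induced by p53, was 2.96-fold (2.53 to 3.45) and 1.90-fold (1.64 to 2.20) higher. Of 15 measured p53 targets, 3 were past 1.5-fold upward at 5 ng/ml and 1 at 50 ng/ml, against 2.45% and 1.63% of all genes. Pmaip1 was the one that passed at both doses. Without FGF4, 4 of 14 passed, where 3.45% of all genes did. The list's median log2 differences were 0.28 at 5 ng/ml, 0.25 at 50 ng/ml and 0.45 without FGF4. Cdkn1a, the p53-induced cell cycle inhibitor, was 1.83-fold (1.71 to 1.95) higher at 5 ng/ml and 1.31-fold (1.21 to 1.41) at 50 ng/ml.

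The stretch upstream of the start of 3 of these genes is shown, from 250 to 51 bases before the RefSeq transcript start (GRCm38.p6, 5′ to 3′ on the gene's strand), with Nkx1-2 as an example of the caudal genes, and Pim2 and Epha2 because they hold the matches found. The letters CTTTGA, the core bound by TCF and LEF factors, and GGTGTGA, a T-box half-site, were searched on both strands, and matches are in capitals.
Nkx1-2 (chr7:132599688-132599887, minus strand): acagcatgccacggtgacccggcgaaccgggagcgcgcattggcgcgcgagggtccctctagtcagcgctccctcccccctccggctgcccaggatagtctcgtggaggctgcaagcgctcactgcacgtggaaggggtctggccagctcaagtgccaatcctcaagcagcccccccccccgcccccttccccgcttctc
Pim2 (chrX:7878056-7878255, plus strand): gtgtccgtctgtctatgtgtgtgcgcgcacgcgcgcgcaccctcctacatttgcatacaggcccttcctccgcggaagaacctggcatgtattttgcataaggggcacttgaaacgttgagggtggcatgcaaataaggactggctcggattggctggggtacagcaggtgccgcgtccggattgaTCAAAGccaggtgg
Epha2 (chr4:141300971-141301170, plus strand): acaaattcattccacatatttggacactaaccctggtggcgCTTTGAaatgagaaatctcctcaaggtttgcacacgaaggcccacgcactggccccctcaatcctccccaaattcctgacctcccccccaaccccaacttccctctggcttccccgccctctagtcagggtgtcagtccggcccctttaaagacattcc
In Pim2 the match reads TCAAAG, the reverse complement of CTTTGA, and in Epha2 it is on the printed strand. Of 7 named higher genes with a window of 300 bases in the RefSeq table, these 2 held CTTTGA and none held GGTGTGA. Of 8 named lower genes with a window, none held CTTTGA and 1 held GGTGTGA. Over all 32851 windows, 16.0% held CTTTGA and 3.98% held GGTGTGA. For the named genes only the first window was searched, and Otx2 had 4 windows and Wfdc2 had 2, so their other starts were not read. A match is a description of the letters and not a measured binding site.

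On the low side, Ckb, Calcoco2, Wfdc2, Jam2 and Lrrc34 were also more abundant without FGF4. Ckb, the brain-type creatine kinase, stood at 149 against 273 CPM at 5 ng/ml, a ratio of 0.546 (0.513 to 0.581), at 123 against 235 CPM at 50 ng/ml, a ratio of 0.525 (0.492 to 0.559), and at 716 against 796 CPM at 0 ng/ml. Calcoco2, an autophagy receptor, had ratios of 0.476 (0.380 to 0.590) and 0.350 (0.257 to 0.465), and Wfdc2, a secreted protease inhibitor, 0.509 (0.425 to 0.604) and 0.461 (0.380 to 0.554). Jam2, a tight junction protein, had 0.589 (0.514 to 0.673) and 0.491 (0.419 to 0.571), and Tcl1, a coactivator of the kinase Akt that is on the naive list, 0.617 (0.521 to 0.726) and 0.565 (0.476 to 0.667). Lgals3, Aoah and Lrrc34, also chosen by the rule, had ratios between 0.43 and 0.61. Ckb stayed past 1.5-fold in all 21 alternatives at both doses. Calcoco2 and Wfdc2 at 5 ng/ml came under it in 1 of them, to log2 ratios of -0.44 in cells of middle depth and -0.58 without Fst in the score. Jam2 at 5 ng/ml, and Tcl1, Lgals3, Aoah and Lrrc34 at both doses, came under it in 1 to 5 of the 21. Class ratios at 0 ng/ml were 0.900 (0.866 to 0.934) for Ckb, 0.696 (0.637 to 0.760) for Calcoco2 and 0.776 (0.695 to 0.864) for Wfdc2. They were 0.758 (0.685 to 0.837) for Jam2, 0.683 (0.487 to 0.936) for Lgals3 and 0.853 (0.704 to 1.03) for Tcl1. Lrrc34 had 0.819 (0.646 to 1.03) and Aoah 1.16 (0.841 to 1.56). For Ckb, Calcoco2, Wfdc2, Jam2 and Lrrc34, the high-score cells of both FGF4 libraries thus lay further from the 0 ng/ml level than the rest of the same culture.

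Slamf1 and Rhox5 passed the same rule but rested on few cells. Slamf1 stood at 7.19 against 29.2 CPM at 5 ng/ml and 6.92 against 19 CPM at 50 ng/ml. A Slamf1 UMI was present in 29 of 71 high-score cells (40.8%) and 46.1% of the rest at 5 ng/ml, and in 36.3% and 34.1% at 50 ng/ml, and single cells of the rest held up to 247 and 120 UMIs. For Rhox5, 5 cells held 85.8% and 77.4% of the high-score transcripts. The mean levels of both genes therefore depend on few cells, and Slamf1 changed direction with the top 20% of cells, to a log2 ratio of 0.13 at 5 ng/ml and 0.48 at 50 ng/ml. Rhox5 came under 1.5-fold in 4 and 7 of 21 alternatives.

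Some imprinted genes were on the high side. Of 17 listed, 12 were measured, and 1.5-fold was passed upward by 6 at 5 ng/ml and by 3 at 50 ng/ml, against 2.45% and 1.63% of all genes, with medians of 0.49 and 0.09. The difference between the doses was not tested. Rian, a noncoding RNA of the Dlk1-Dio3 cluster, was 1.74-fold (1.61 to 1.88) and 1.54-fold (1.43 to 1.66) higher, and its neighbour Meg3 was 1.54-fold (1.47 to 1.61) and 1.48-fold (1.41 to 1.54) higher. Peg10, a retrotransposon-derived gene needed in the placenta, was 2.10-fold (1.88 to 2.35) and 1.75-fold (1.58 to 1.93) higher and also 2.0-fold higher without FGF4. Cdkn1c, an inhibitor of the cell cycle, was 1.64-fold (1.47 to 1.82) and 1.70-fold (1.54 to 1.88) higher. Peg3, a paternally expressed gene, had a ratio of 1.73 (1.55 to 1.92) at 5 ng/ml and 0.962 (0.839 to 1.10) at 50 ng/ml. Without FGF4, 4 of 13 were higher, against 3.45% of all genes, with a median of 0.24. Rian, Peg10 and Cdkn1c were the 3 genes past 1.5-fold at both doses.

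Lists of markers of other cell types held few measured genes. Of the 12 feeder fibroblast markers 1, Fbln1, reached 5 CPM and the list's summed level was 65.3 against 61.2 CPM at 5 ng/ml and 59.0 against 62.1 CPM at 50 ng/ml, with 5 and 7 markers at 0 in the high-score cells. The 10 blood and endothelial markers summed to 32.2 against 43.3 CPM and 37.6 against 38.0 CPM. Of 15 definitive endoderm genes 3 and 4 were measured, and Otx2, which this list shares with the formative list, was past 1.5-fold at both doses. Sox17, the defining endoderm factor, had 0 and 1 UMI. Of 17 trophectoderm genes, a lineage that Cdx2 also marks, 3 were measured at either dose and 2 and 3 were at 0 in the high-score cells. Krt18, a keratin of that lineage, was 1.58-fold (1.06 to 2.28) and 1.55-fold (1.12 to 2.11) higher, with 58.8% and 61.2% of its UMIs in 5 cells. Of 21 primitive endoderm genes 7 and 6 were measured, and the list summed to 295.2 against 331.2 CPM and 259 against 297.4 CPM. Nid1, a basement membrane gene, was lower, with ratios of 0.488 (0.344 to 0.674) and 0.633 (0.459 to 0.855), and Lamb1, a laminin gene, was 1.57-fold (1.34 to 1.83) and 1.48-fold (1.27 to 1.72) higher. Of 17 neuroectoderm genes 6 were measured. Sox11 and Neurod1, a neuronal transcription factor, were higher and Tubb3 and Mobp lower at 5 ng/ml, with a median of 0.26. Sox11 was higher and Pax6, Tubb3 and Mobp lower at 50 ng/ml, with a median of -0.27. Tubb3, a neuronal tubulin, had ratios of 0.655 (0.553 to 0.772) and 0.447 (0.365 to 0.541). Cdh1, the epithelial cadherin that is lost during passage through the streak, was level at 80.4 against 75 CPM and 68.8 against 71.2 CPM. Vim, a mesenchymal filament gene, had ratios of 1.04 and 0.915. Both belong to a list of 25 epithelial and mesenchymal genes. In the 5 ng/ml library 4 of its 15 measured members passed 1.5-fold upward, against 2.45% of all genes, with a median of 0.26. In the 50 ng/ml library 2 of 13 passed upward and 1 downward, against 1.63% and 1.7%, with a median of 0.096. Over members with 5 CPM in all intact cells, 1 of 11 and 0 of 11 passed upward, and 0 and 1 downward. The medians there were 0.10 and -0.050.

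Several genes also differed below the top 10%. At 5 ng/ml, Nkx1-2 stood at 23.1 CPM in the top 10% of cells by score, 21.7 CPM in the next 10%, 12.7 CPM in the next 30% and 8.48 CPM in the lower 50%. The 50 ng/ml values were 24.4, 16.1, 12.4 and 7.66 CPM. Lef1 went the same way, with 110, 87.9, 81.6 and 58.2 CPM at 5 ng/ml and 142, 104, 95 and 71.4 CPM at 50 ng/ml. Otx2 and Wnt8a at 5 ng/ml instead dropped most at the first step, from 15 to 5.38 CPM and from 18.9 to 6.76 CPM, and Otx2 lay at 4.91 and 4.46 CPM in the lower bands. Nanog at 50 ng/ml was higher in each lower band, with 67.5, 90.7, 107 and 114 CPM, while at 5 ng/ml the top band, at 124 CPM, stood apart from 157, 149 and 157 CPM. Pou5f1 stayed between 365 and 410 CPM in all bands of both libraries. Wfdc2 was lowest in the top band and highest in the lowest, at 19.5 and 44.7 CPM at 5 ng/ml.

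**Figure D4:**
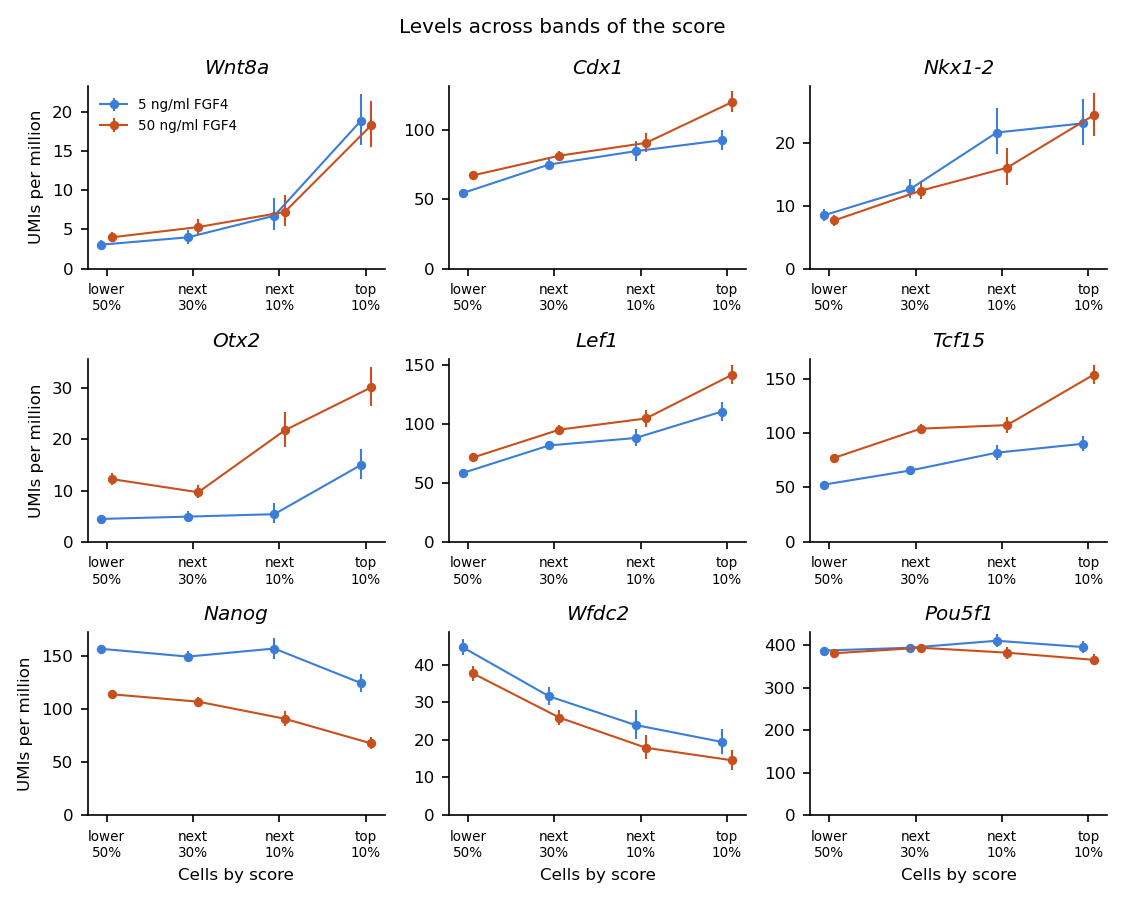
Level in CPM of selected genes in 4 bands of cells ordered by score (top 10%, next 10%, next 30% and lower 50%), 1 line per library, with 95% exact Poisson intervals for counting error. Nkx1-2 at 5 ng/ml goes from 23.1 CPM in the top band to 8.48 CPM in the lowest, and Pou5f1 stays between 365 and 410 CPM at 5 and 50 ng/ml.

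The high-score cells were not uniform. By the gene with the most UMIs in each cell, T led in 20 of the 71 cells at 5 ng/ml, Cdx2 in 23, Fst in 18 and Eomes in 4, and 6 were tied. In the 50 ng/ml library T led in 24 of 80, Fst in 20, Cdx2 in 13, Eomes in 13 and Evx1 in 1, and 9 were tied. UMIs of 3 of the 7 genes were found in 22 and of 4 in 21 of the 71 cells, and in 23 and 26 of the 80. The subgroups are small and their levels are given as a description. With 50 ng/ml, Pou3f1 stood at 49.3 CPM (39.7 to 60.5) in Fst-led cells, 25.8 CPM in Eomes-led, 14.5 CPM in T-led and 11.0 CPM in Cdx2-led cells, against 9.29 CPM in the rest. Epha2 stood at 153 CPM (136 to 172) in Fst-led cells against 72.8, 56.6 and 44.6 CPM in T-led, Cdx2-led and Eomes-led cells. Both genes were thus highest where Fst led. Cdx1 was at 158 CPM (138 to 181) in Cdx2-led, 132 CPM (119 to 146) in T-led and 66.1 CPM (54.9 to 78.9) in Fst-led cells, where it did not exceed its 74.4 CPM in the rest. The order for Pou3f1 at 5 ng/ml was again Fst-led, T-led and Cdx2-led, at 19.5, 14.3 and 10.1 CPM, with overlapping intervals. Epha2 and Cdx1 also kept their extremes in Fst-led cells there, at 97.5 CPM (83.9 to 113) and 69.0 CPM (57.7 to 81.9). Otx2 was highest in Fst-led cells at 50 ng/ml, at 53.1 CPM, and lowest in them at 5 ng/ml, at 11.6 CPM, so its order was not shared by the libraries.

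**Figure D5:**
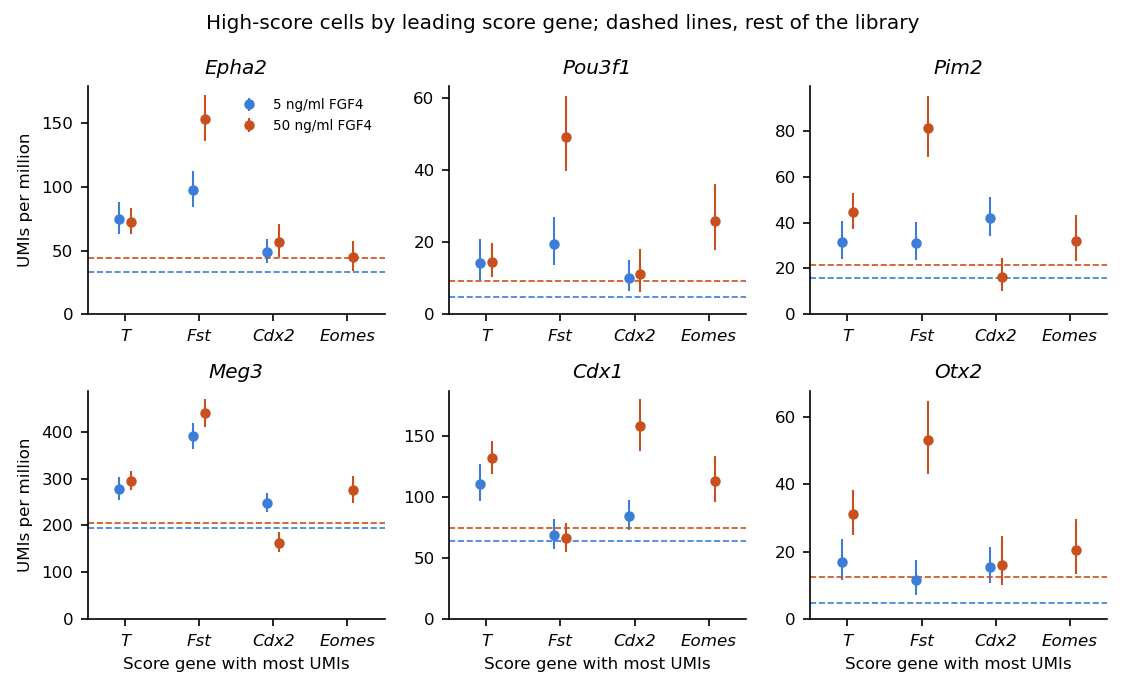
Level in CPM of selected genes in high-score cells grouped by the score gene with the most UMIs, with 95% exact Poisson intervals for counting error and the level of the rest as a reference. At 50 ng/ml Pou3f1 and Epha2 are highest in Fst-led cells, at 49.3 and 153 CPM, and Cdx1 is highest in Cdx2-led cells, at 158 CPM.

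In the rest of the transcriptome the high-score cells were scattered with a mild tendency to lie together. With the 7 score genes left out, 18.8% of the 15 nearest neighbours of a high-score cell were high-score cells at 5 ng/ml, against 7.5% of the neighbours of other cells. The 50 ng/ml values were 21.3% and 8.75%, and without FGF4 11.3% and 8.48%. A total of 7 high-score cells at 5 ng/ml and 13 at 50 ng/ml had no high-score neighbour, and in 4 and 5 cells most neighbours were high-score cells. Without the cell cycle genes the shares were 18.3% and 20.7%.

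Since the top 10% is a share by definition, the dose was read by a fixed score instead. Past the boundary of the 5 ng/ml library lay 2 of 359 cells without FGF4 (0.557%, exact binomial interval 0.0675 to 2.0), 10.1% at 5 ng/ml and 110 of 798 cells at 50 ng/ml (13.8%, 11.5 to 16.4). With every cell thinned to 30000 UMIs and at least 3 UMIs of the score genes required, the shares were 2.51%, 16.0% and 21.6% in one draw and 2.79%, 13.9% and 17.2% in another. These shares describe 3 libraries by the score that also chose the cells. The interval covers the counting of cells within a library, and a difference between doses could not be tested with 1 library each.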

How the data were processed

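Cells were profiled with 10x Chromium 3′ v3.1 chemistry, which counts the 3′ ends of transcripts, per the labels' protocols, in 3 libraries of dissociated cells. The deposited matrices hold raw UMI counts per gene and cell barcode, made with Cell Ranger 4.0.0 per the file headers, on mm10 per the submitters' processing notes. The annotation release, the strand setting and the rule that called cells are not given in the sources used here. Gene coordinates are from the GENCODE annotation of the same build.

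Intact cells had at most 10% mitochondrial UMIs and a total within 3-fold of the library's median, which left out 14, 168 and 177 barcodes at 0, 5 and 50 ng/ml. The members and the 33 gene lists were chosen with earlier results of these data known. UMIs were summed over the cells of a class and divided by the class total to give CPM, and a ratio of classes has an exact conditional binomial interval at 95%. Cells are not replicates, so no p-value was computed. Genes were considered from 10 CPM in the higher class, and listed genes from 5 CPM. The 12 named genes each way had the same direction in both FGF4 libraries and intervals that excluded 1, were ranked by the smaller of the 2 differences, and left out score genes, predicted genes and ribosomal protein genes. Members of the lists were named besides, and some genes that the rule chose are not reported here. Doublets were called and neighbours found with scanpy 1.11.5 and scikit-learn 1.9.0 on 20 principal components of 2000 variable genes. Other steps used Python 3.11.15, numpy 2.4.6, scipy 1.17.1, pandas 2.3.3 and matplotlib 3.10.9, and the ratio script was tested on simulated data. The simulated counts had counting error alone and no variation between cells, so the test does not cover genes whose transcripts lie in few cells. Alternatives covered the share taken, the score genes, depth, cell cycle state, single cells and the level and fold thresholds.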

Additional observations from a re-analysis of the deposited data

Results flagged for a closer look

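Slc7a14, an amino acid transporter gene, was the 1 gene past 1.5-fold in opposite directions at the 2 doses. It stood at 18.3 CPM in high-score cells and 11.9 CPM in the rest at 5 ng/ml, a ratio of 1.54 (1.27 to 1.86) and a log2 ratio of 0.62, and at 4.98 against 11.8 CPM at 50 ng/ml, a ratio of 0.42 (0.30 to 0.58) and a log2 ratio of -1.25. Without FGF4 the values were 11.0 and 11.1 CPM. Of its 130 UMIs in the high-score cells at 5 ng/ml, 59 were in 1 cell, and of the 831 UMIs in the rest at 50 ng/ml, 204 were in 1 cell. A UMI was present in 36.6% of high-score cells and 32.3% of the rest at 5 ng/ml, and in 26.3% and 29.0% at 50 ng/ml. The difference between the libraries was not tested.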

How the results depend on the processing

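No paired analysis was possible because each dose has 1 library. The number of genes past the threshold depended on how it was set. At 5 ng/ml the 108 higher and 62 lower genes became 177 and 170 with the top 5% of cells, 58 and 25 with the top 20%, 50 and 23 after thinning, 191 and 132 in cells of middle depth, 261 and 119 in cells above the median of the G2 and M-phase genes, 36 and 163 without the 3 cells of each class with the most UMIs of each gene, 230 and 123 from 5 CPM, 42 and 30 from 20 CPM, 467 and 289 at the lower fold threshold and 31 and 11 at 2-fold; the lower genes became 109 in cells at or below that median and 97 without mitochondrial and ribosomal genes in the totals. At 50 ng/ml the 71 higher and 81 lower genes became 164 and 261 with the top 5%, 33 and 38 with the top 20%, 150 and 174 above the G2 and M-phase median, 36 and 145 without the 3 cells, 150 and 157 from 5 CPM, 43 and 39 from 20 CPM, 331 and 331 at the lower fold threshold and 14 and 18 at 2-fold; the higher genes became 110 at middle depth and the lower 122 without mitochondrial and ribosomal genes. Leaving 3 cells out of each class removes a larger part of the small class, by construction.

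In both libraries together, the 44 higher genes became 20 with the top 20%, 28 without T and 28 without Fst in the score, 26 after thinning, 18 without the 3 highest cells, 72 from 5 CPM, 23 from 20 CPM, 156 at the lower fold threshold and 8 at 2-fold. The 19 lower genes became 76 with the top 5%, 8 with the top 20%, 8 without T, 38 without Eomes, 7 after thinning, 31 without mitochondrial and ribosomal genes, 36 above the G2 and M-phase median, 58 without the 3 highest cells, 39 from 5 CPM, 10 from 20 CPM, 106 at the lower fold threshold and 3 at 2-fold.

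The median of the axial genes stayed above 0 in every alternative run. At 5 ng/ml (1.05) it was 1.46 with the top 5%, 0.82 with the top 20%, 0.81 without Cdx2, 0.78 by mean share per cell, 1.26 without mitochondrial and ribosomal genes, 1.44 at middle depth and 2.04 over every member with a UMI. At 50 ng/ml (1.26) it was 1.86 with the top 5%, 1.01 without T, 1.57 at middle depth, 1.51 above the G2 and M-phase median and 1.06 without the 3 highest cells. The naive median at 50 ng/ml was -0.88 with the top 5%. The streak median at 50 ng/ml (0.28) was 0.61 without the top 4% of cells of each class, 0.51 over every member with a UMI and 0.029 over members with 5 CPM in all intact cells, and at 5 ng/ml (0.29) it was 0.89 over every member with a UMI. These last 3 settings were chosen after seeing the data.

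Slamf1 changed sign: its log2 ratio at 5 ng/ml was 0.13 with the top 20%, 0.76 without Fst and 0.79 after thinning, and at 50 ng/ml 0.48 with the top 20%, 0.31 without T and 0.41 without Eomes. The neuroectoderm median at 5 ng/ml was -0.027 without Eomes, -0.14 without Cdx2 and -0.050 without the 3 highest cells, the LIF and STAT3 median at 50 ng/ml was 0.044 after thinning, and the Wnt target median at 50 ng/ml was -0.041 without the 3 highest cells. Other named genes came under 1.5-fold in at least 1 alternative. These were Pou3f1 at both doses (0.58 after thinning, 0.54 without Fst), Epha2 at 50 ng/ml (0.45 without Fst), Calcoco2 (-0.44), Wfdc2 (-0.58) and Jam2 (-0.42) at 5 ng/ml, and Rhox5 (-0.45, -0.18), Lgals3 (-0.43, -0.23), Aoah (-0.45, -0.41), Lrrc34 (-0.47, -0.54) and Tcl1 (-0.22, -0.49) at 5 and 50 ng/ml. The cause was not tested in any of these. Of 1008 recomputed ratios of named genes, 208 moved and 6 changed sign. Shares of cells past the fixed score at 0, 5 and 50 ng/ml were 2.51%, 16.0% and 21.6% after thinning in one draw and 2.79%, 13.9% and 17.2% in another.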

Other observations

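Genes of the transient state that resembles the 2-cell embryo were counted in few cells of either class. Zscan4c, a telomere-lengthening factor that marks that state, had no UMI in the 71 high-score cells at 5 ng/ml and 4 UMIs in 4 of the 80 at 50 ng/ml, which is 5% of cells. The rest held 237 UMIs in 14 of 635 cells (2.20%) and 1271 UMIs in 42 of 718 cells (5.85%), and 118 and 684 of these were in 1 cell. The share of cells with a UMI therefore did not stand apart between the classes beyond counting error, while the summed level did. Chac1, a target of the stress factor ATF4, was lower in high-score cells at 5 ng/ml, at 3.81 against 12.5 CPM, and level at 50 ng/ml, at 15.2 against 14.7 CPM. Tet3, a DNA demethylase gene, was higher at both doses, 1.81-fold (1.29 to 2.49) and 2.02-fold (1.50 to 2.70), on 46 and 59 UMIs.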
